A study of Mus musculus with 18 samples.

Results

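Spleen-biased regions are stretches of open chromatin that ranked among the stronger ATAC-seq peaks of spleen libraries and rarely did so in lymph node libraries. The 14000 strongest peaks (by the deposited −log10 p) of each of 18 libraries on chromosomes 1 to 19 and X were merged into 25305 union regions. A region was taken when it held a peak in at least 4 of the 6 spleen lists, with at least 2 in each reporter level, and in at most 4 of the 12 node lists. This left 310 regions, or 1.23% of all. The same rule with another organ in the place of spleen gave 313 mesenteric-biased and 343 axillary-biased regions. The regions were thus chosen by peak strength and peak presence in spleen against node lists, and every value of that contrast below is a description without a test.

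The cells were naive CD4+ T cells of untreated wild-type C57BL6/J mice carrying an Nr4a1-dsGFP reporter, a destabilised GFP driven by Nr4a1, a gene that T cell receptor (TCR) signals switch on. They were separated into high and low tonic TCR stimulation (TTS) by that reporter. The 6 groups were spleen high, spleen low, mesenteric lymph node high, mesenteric low, axillary lymph node high and axillary low, with 3 libraries each. The libraries of a group are labelled as biological replicates. The sources used here do not give the age of the animals or say whether replicates came from separate animals or pools.

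As background, ATAC-seq uses the Tn5 transposase to cut and tag DNA that is not wrapped tightly in nucleosomes, so that peaks mark promoters and enhancers in use or ready for use. Naive CD4 T cells circulate between the spleen and lymph nodes, and they receive weak TCR signals from self peptides in both. The spleen filters blood, whereas nodes filter lymph. In sorted bulk cells a weaker peak can reflect fewer cells with an open region or less opening in each cell, and these cannot be told apart.

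The promoters under 6 of the regions are shown first, to give the sequence at members described below that lie at a start. They are those of Ctnnb1 and Plekho2, which held the highest ranks among members at a gene start, of Cxcl10, of Mfap3l, which had no node peak among the 14000 strongest, of the stress factor gene Atf3, and of Ptgs2os2, a transcript that starts inside the region named for Ptgs2. Each is the 250 bases before the RefSeq transcription start on GRCm38.p6 (mm10), 5′ to 3′ on the strand of the gene. Capitals mark matches, on either strand, to the AP-1 motif TGANTCA, NF-kB GGGNNTTCC, the cyclic AMP response element TGACGTCA and its core CGTCA, ETS CCGGAAG, SP/KLF GGGCGG, NF-Y CCAAT, RUNX TGTGGT and YY1 AAGATGGC.
Ctnnb1 (chr9:120933150-120933399, plus strand): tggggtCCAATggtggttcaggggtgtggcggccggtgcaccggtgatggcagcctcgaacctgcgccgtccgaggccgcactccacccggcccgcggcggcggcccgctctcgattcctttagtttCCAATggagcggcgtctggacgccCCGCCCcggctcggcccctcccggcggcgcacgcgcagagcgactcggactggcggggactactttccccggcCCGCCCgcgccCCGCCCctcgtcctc
Plekho2 (chr9:65580088-65580337, minus strand): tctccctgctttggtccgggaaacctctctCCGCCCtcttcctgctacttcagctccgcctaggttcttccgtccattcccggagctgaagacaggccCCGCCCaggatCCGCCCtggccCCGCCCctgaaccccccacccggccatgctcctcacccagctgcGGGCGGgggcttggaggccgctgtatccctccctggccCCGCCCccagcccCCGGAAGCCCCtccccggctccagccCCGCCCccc
Cxcl10 (chr5:92348890-92349139, minus strand): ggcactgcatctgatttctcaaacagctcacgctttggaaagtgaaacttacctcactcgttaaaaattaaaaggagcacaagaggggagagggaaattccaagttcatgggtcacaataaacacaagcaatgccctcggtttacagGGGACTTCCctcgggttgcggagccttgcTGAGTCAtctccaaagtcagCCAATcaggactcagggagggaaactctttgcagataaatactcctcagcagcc
Mfap3l (chr8:60632575-60632824, plus strand): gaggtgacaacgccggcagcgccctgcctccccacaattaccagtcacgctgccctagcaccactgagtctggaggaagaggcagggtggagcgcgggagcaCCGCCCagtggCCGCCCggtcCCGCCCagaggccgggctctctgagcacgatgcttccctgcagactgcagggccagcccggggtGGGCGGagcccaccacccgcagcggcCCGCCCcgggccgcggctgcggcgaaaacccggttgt
Atf3 (chr1:191183334-191183583, minus strand): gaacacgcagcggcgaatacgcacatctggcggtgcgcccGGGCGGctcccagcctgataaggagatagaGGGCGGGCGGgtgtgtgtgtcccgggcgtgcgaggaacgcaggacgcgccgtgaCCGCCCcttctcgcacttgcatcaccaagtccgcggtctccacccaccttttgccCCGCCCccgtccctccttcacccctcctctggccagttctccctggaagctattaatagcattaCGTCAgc
Ptgs2os2 (chr1:150164949-150165198, minus strand): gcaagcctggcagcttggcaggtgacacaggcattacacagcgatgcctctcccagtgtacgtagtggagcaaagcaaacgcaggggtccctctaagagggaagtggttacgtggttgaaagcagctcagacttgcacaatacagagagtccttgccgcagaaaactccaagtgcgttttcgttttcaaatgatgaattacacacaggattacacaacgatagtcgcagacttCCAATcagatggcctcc

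The Ctnnb1, Plekho2, Mfap3l and Atf3 windows were rich in G and C, at 74.8%, 72.4%, 72.8% and 65.2%, and carried repeated GGGCGG boxes. The Cxcl10 and Ptgs2os2 windows were at 48.0% and 50.4%. Cxcl10, which encodes a chemokine that draws CXCR3-bearing T cells, had the letters of an NF-kB match, an AP-1 match and a CCAAT box in 1 window. The Atf3 window ended in a CGTCA core, and the Ptgs2os2 window held a CCAAT box close to the start. These matches describe letters and do not show that a factor binds there.

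Depth differed between organs, which bears on every count of peaks below. Recovered background was 9.84 to 14.4 reads per 10 kb in spleen libraries, 11.7 to 16.6 in mesenteric and 8.48 to 10.2 in axillary libraries, and complete lists held 14514 to 18008, 17203 to 23129 and 14372 to 15898 peaks. The weakest of the 14000 peaks kept had a −log10 p of 7.12 to 9.59 in spleen lists and 6.85 to 12.4 in node lists, so the same list length is a different strength in each library. The smallest peak width of a list, read here as the fragment estimate of the peak caller, was 161 to 176 bp in 12 libraries. It was 216 to 236 bp in 6, namely spleen low replicate 3 and 5 axillary libraries. The chi-square per region of summit reads was 0.503 to 0.639 in 18 pairs of libraries within groups and 0.604 to 0.96 in 135 pairs across groups, where 1 stands for independent counts. Pairs across groups were thus below 1 as well, so 1 is not a sure reference for these summits. P-values below measure the spread between these libraries. They are labelled biological replicates, but how much of that spread is biological was not tested, and it may be technical.

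The labelled cell type was checked by peaks within 1000 bp of a gene end. Of 12 CD4 T cell markers, 3 to 6 had one in a spleen library and 3 to 7 in a node library, with none at Il7r, Lck, Lef1 or Tcf7. Of 9 B cell markers, 0 to 1 had a peak in spleen and 0 in node libraries, and Ms4a1, Cd79a, Cd79b and Pax5 had none. Of 9 myeloid markers, 0 to 2 had one in spleen and 0 to 1 in node libraries, and Lyz2, Csf1r, Cd14 and Itgam had none. Of 5 markers of red pulp macrophages, a cell type of the spleen, 1 had a peak in both, while Spic, Vcam1, Cd163 and Slc40a1 had none. Of 10 erythroid and megakaryocyte markers, 0 to 2 had a peak in both, with none at Gata1, Klf1, Hba-a1 or Hbb-bt. CD8 T cell markers stood at 1 of 2 in spleen and 0 to 1 in node libraries, NK cell markers at 0 of 6 against 0 to 1, dendritic cell markers at 0 of 6 in both, and stromal markers at 0 of 8 against 0 to 1. None of the 310 regions was assigned to a gene of these 9 marker lists. The lists hold few regions, 49 for CD4 T cells and 2 to 12 for each of the others. Of all assigned regions 1.21% were spleen-biased, so a count of 0 is close to that share and says little about other cell types.

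The 310 regions were weak peaks in the spleen itself. On a scale of list rank where 100 is the strongest of the 14000 peaks and 0 the weakest, the mean over the spleen lists that held a peak had a median of 23.3, with quartiles of 17.3 and 28.8. It was below 25 in 178 regions and above 50 in 3, among them regions at Ctnnb1 (53.3) and Mfsd1 (52.7). The mean number of reads at the summit was 7 to 26.5 with a median of 11.2, while the median kept peak of a spleen library had 16 to 18. Taken over all lists that held a peak, the median rank was 22.0 for spleen-biased regions and 70.4 for union regions found in all 18 lists. The median reads by that measure were 11.0 and 24.8. Low ranks were shared by the sets found in few lists. The median rank was 21.8 for mesenteric-biased and 20.9 for axillary-biased regions. It was 19.4 for regions of 4 to 10 lists outside the 3 sets. The last 1000 peaks kept, those nearest to the limit of a list, had a median of 8 to 10 reads in spleen lists.

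**Figure D1:**
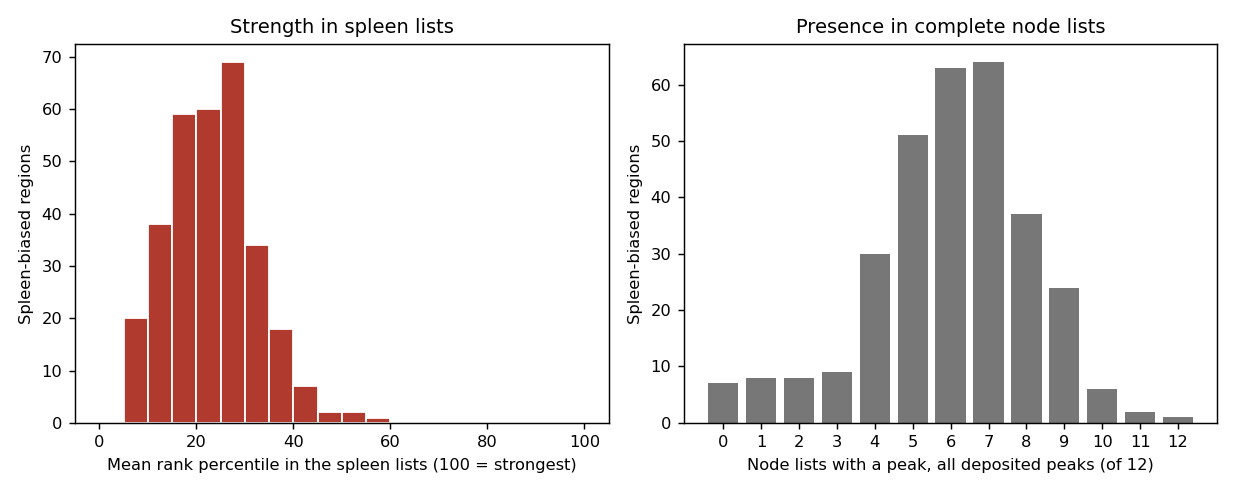
Left, number of spleen-biased regions (y axis) by their mean rank percentile in the spleen lists that held a peak (x axis, 100 is strongest). Right, number of regions by how many of the 12 complete node lists held a peak. Most regions lie in the lower 30 points of the spleen lists, and 7 regions have no peak in any complete node list.

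Most regions stood near the limits of the rule. A peak was found in 4 spleen lists at 169 regions, in 5 at 108 and in all 6 at 33. At 127 regions 4 node lists held a peak, at 65 regions 3, at 56 regions 2, at 38 regions 1 and at 24 regions none. Just inside the limit were regions at Bex6, Cxcl10 and Adnp, each with 4 spleen and 4 node lists and mean spleen ranks of 44.8, 37.2 and 36.7. Just outside were regions at Psmd1, Crot and Pcdh17, each with 4 spleen and 5 node lists and ranks of 43.5, 40.7 and 40.4. In all, 179 regions missed the rule by 1 node list.

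Among the 24 regions without a node peak in the equal lists, 4 had a peak in all 6 spleen lists. The strongest of these lay 373883 bp outside Kctd8 (chr5:68735241-68735563), whose product is an auxiliary subunit of GABA-B receptors. Its summit held 13, 16 and 11 reads in spleen high and 11, 11 and 11 in spleen low libraries, and no node list, complete or cut, had a peak there. Summit reads here and below are from the complete lists, so a library whose peak is not among the 14000 strongest also has a value. They are raw reads, not scaled for depth, and overlap of counts below refers to raw reads. The median kept peak had 23 to 24 reads in mesenteric high libraries, against 16 to 18 in spleen and 15 to 16 in axillary libraries. An equal count is therefore a weaker peak within a mesenteric high list. A region 20502 bp outside Cenpe (chr3:135191844-135192279), the gene of a kinetochore motor protein, also had no peak in any complete node list. It held 15 and 14 reads in spleen high replicates 1 and 2, while the reads of replicate 3 were not recovered, and 7, 8 and 7 in spleen low libraries. The recovered high and low counts at Cenpe did not overlap.

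Another region with a peak in all 6 spleen lists lay inside Rfx4, a transcription factor gene (chr10:84774547-84774939). It held 11, 11 and 12 reads in spleen high and 11, 9 and 7 in spleen low libraries. The complete list of mesenteric high replicate 3 held a weak peak of 5 reads there, below all 6 spleen counts, and no other node library had one.

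Of the next 8 regions by the same order, all with 5 spleen lists and no node list, 4 had no peak in any complete node list. A region 120742 bp outside Cxcr4 (chr1:128712832-128713251), which encodes the receptor for the chemokine CXCL12, held 12, 16 and 17 reads in spleen high libraries and 9 and 10 in spleen low replicates 2 and 3. Others of this kind lay inside Prr5l, a partner of the growth regulator mTORC2, and 17652 bp outside Pttg1ip2. Regions at Lrrfip1, Snx14, Mfap3l and Zfp462 had mesenteric high peaks in the complete lists. At Lrrfip1 the 5 spleen libraries with a peak held 9 to 15 reads and mesenteric high replicates 1 and 2 held 7 and 11. At Snx14 spleen libraries held 6 to 13 and mesenteric high libraries 7, 8 and 9, so that counts overlapped at both regions. At Mfap3l the spleen libraries with a peak held 10 to 15 reads, against 6 and 5 in mesenteric high replicates 1 and 2. At Zfp462 they held 8 to 12, against 4 in mesenteric high replicate 2. These counts did not overlap, but spleen low replicate 3 at Mfap3l and spleen low replicate 2 at Zfp462 had no peak. A further region with no peak in any complete node list lay 25348 bp outside Mfsd1, a lysosomal transporter gene, with 16 and 7 reads in spleen high replicates 2 and 3 and 12 each in spleen low replicates 1 and 2. Mfsd1 was named after its values were seen.

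**Figure D2:**
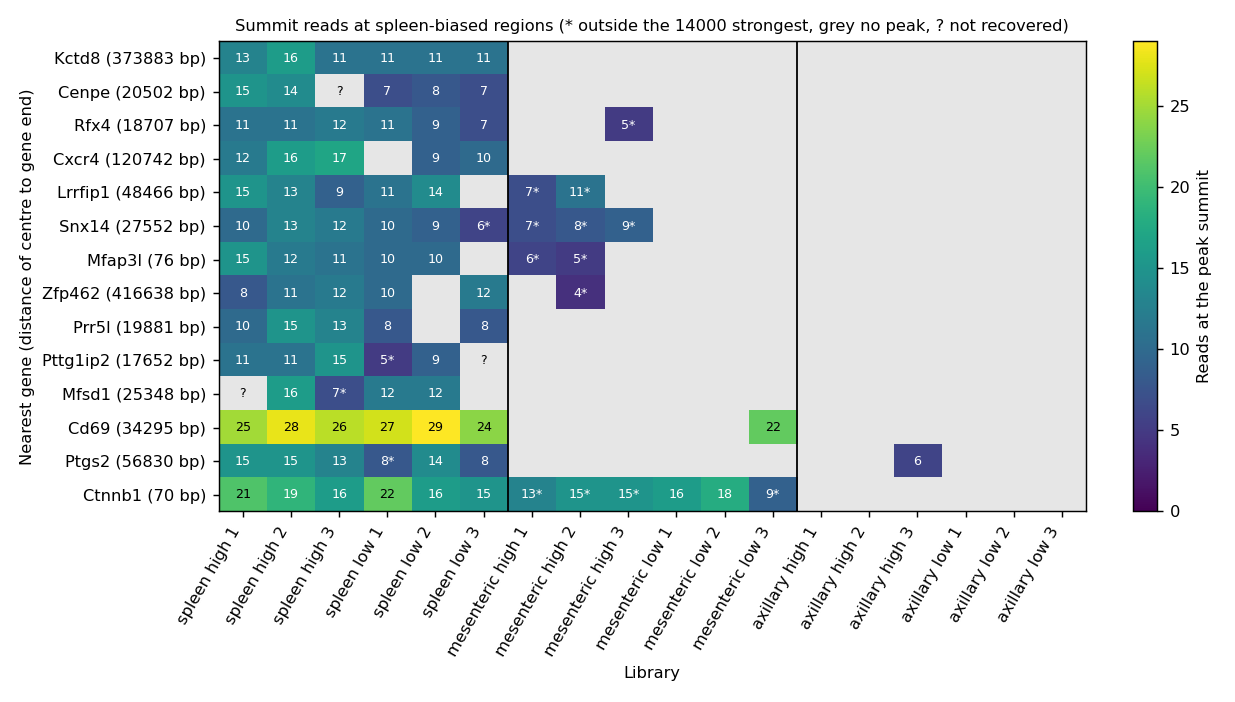
Reads at the peak summit (number and colour, scale at right) of 14 spleen-biased regions (rows, nearest gene and distance) in the complete list of each library (columns, spleen left of the nodes). An asterisk marks a peak outside the 14000 strongest, a question mark a peak whose reads were not recovered, and grey a library without a peak. Cd69 has the highest counts, 24 to 29 in spleen libraries, and the axillary columns hold 1 peak in all.

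In the equal lists the separation follows from the rule. Peaks were found at 235, 234 and 246 of the 310 regions in spleen high libraries and at 230, 240 and 229 in spleen low libraries. The counts were 64, 67 and 77 in mesenteric high, 84, 71 and 84 in mesenteric low, 69, 58 and 68 in axillary high and 68, 73 and 70 in axillary low libraries. In the complete lists the nodes parted. Spleen high libraries held a peak at 84.5%, 86.8% and 92.9% of the regions and spleen low libraries at 87.1%, 89.7% and 76.5%. Mesenteric high libraries reached 83.2%, 84.2% and 82.6%, within the range of the spleen libraries, and mesenteric low libraries 53.5%, 52.6% and 60.3%. Axillary high libraries stayed at 37.4%, 32.3% and 28.7% and axillary low libraries at 31.3%, 25.8% and 27.4%.

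The complete lists differed in length and depth. Over all 25305 union regions, the share with a peak in the complete list was 56.7% to 67.3% in spleen, 79.8% to 80.7% in mesenteric high, 65.2% to 65.9% in mesenteric low and 56.2% to 61.0% in axillary libraries. The spleen-biased regions thus stood above the share of all regions in every spleen library, above it by a few points in mesenteric high and below it in mesenteric low and axillary libraries, which is a description. High shares in mesenteric high and low shares in axillary lists were not particular to these regions. Complete mesenteric high lists held a peak at 86.3%, 88.6% and 88.9% of the axillary-biased regions. Complete axillary lists held one at 28.1% to 45.7% of the mesenteric-biased regions. In mesenteric high libraries 179 to 194 of the regions held a peak that was outside the 14000 strongest, at a median place of 17175 to 17707 in the list. Caller options are not given, so a cutoff on p was assumed. Under it, 4 summit reads at average background would suffice for a peak in every library. Depth was lower in the axillary libraries, and its part in their low shares was not tested.

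**Figure D3:**
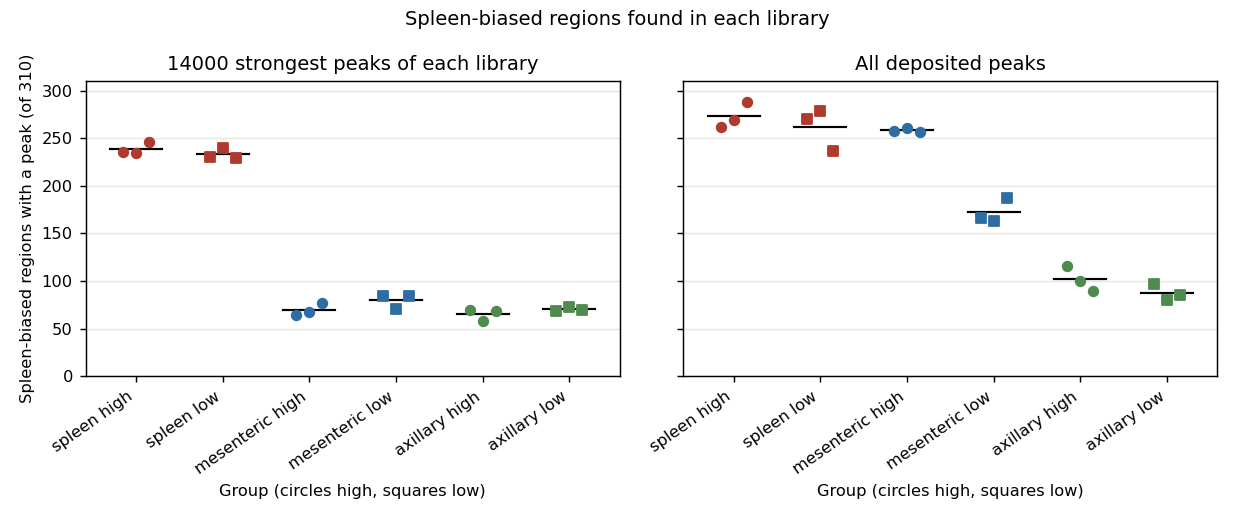
Number of the 310 spleen-biased regions with a peak (y axis) in each library (points, 3 per group, bars are means) among the 14000 strongest peaks (left) and among all deposited peaks (right). Spleen libraries hold 229 to 246 on the left, against 58 to 84 in node libraries. On the right mesenteric high libraries hold 256 to 261, inside the spleen range of 237 to 288, and axillary libraries 80 to 116.

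With complete lists, 62 of the 310 regions (20.0%) still had a peak in at most 4 node lists, 9 had one in 10 or more, and the median was 6 of 12. No complete node list held a peak at 7 regions. Whether the label of spleen bias rests on rank or on absence of a peak differed between node groups. Complete mesenteric high lists held a peak at 82.6% to 84.2% of the regions, so there it rests mostly on rank. Mesenteric low lists held one at 52.6% to 60.3%. Axillary high lists held one at 28.7% to 37.4% and axillary low lists at 25.8% to 31.3%. There it rests mostly on absence from these shorter lists. All 6 complete spleen lists held a peak at 124 regions.

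Membership changed with how the lists were cut. With the 12000 strongest peaks 273 regions met the rule, of which 92 were among the 310, and with 10000 there were 258, of which 23 were among the 310. With all deposited peaks 290 regions met it and 62 were shared. When peaks were ranked by the deposited fold instead of p, 291 met it and 205 were shared. The 24 regions without a node peak were kept more often, with 3 left at 10000 peaks, 14 at 12000, 22 with all peaks and 20 by fold. Leaving out 1 spleen library, with the limits unchanged, left 149 to 171 regions. With 10000, 12000 and all peaks and by fold alike, 5 regions met the rule, and they lay nearest to Kctd8, Mfsd1, Ctso, Med13l and Kctd12, named after their values were seen.

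Of these 5, the region 6602 bp outside Ctso, which encodes cathepsin O, held 15 and 15 reads in spleen high replicates 1 and 2 and 13 and 15 in spleen low replicates 2 and 3. Its 1 node peak, in axillary high replicate 2, had 7 reads and was outside the strongest 14000. The region nearest to Med13l, a subunit gene of the Mediator complex, lay 12 bp from a RefSeq start of another transcript. It held 13, 9 and 14 reads in spleen high and 7, 10 and 10 in spleen low libraries, and 8, 11 and 14 in the complete mesenteric high lists. The counts at Med13l overlapped between spleen and mesenteric high libraries.

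**Figure D4:**
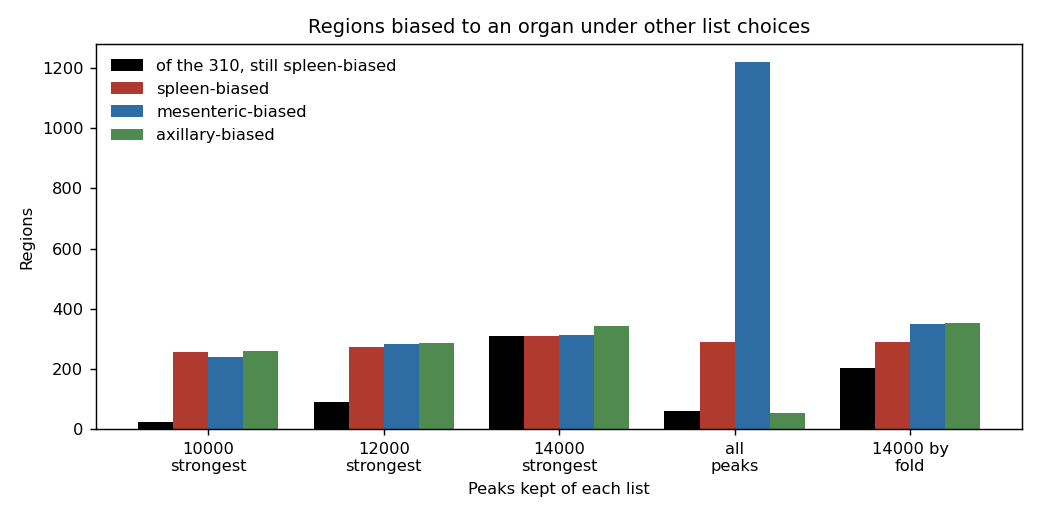
Regions that met the rule (y axis, number) for spleen, mesenteric and axillary nodes when 10000, 12000, 14000 or all peaks of each list were used, or 14000 by fold. Black bars count the 310 spleen-biased regions that met it again, from 23 at 10000 peaks to 205 by fold. With all peaks 290 regions were spleen-biased, 1219 mesenteric-biased and 53 axillary-biased.

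Spleen-biased regions lay mostly away from genes' ends. The centre was within 1000 bp of an end of a protein-coding gene in 85 regions (27.4%), against 35.8% of all union regions and 68.0% of those in all 18 lists. Regions of 4 to 10 lists outside the 3 organ-biased sets, which are found in as few lists, had 21.8%, mesenteric-biased regions 27.8% and axillary-biased regions 11.7%. The distance was over 10000 bp in 155 of the 310 regions, against 42.8% of all regions. The centre was inside a gene in 162 (52.3%), against 60.3% of all. The share near an end depended on the cut and was 42.6% with 10000 peaks and 20.0% with all peaks, against 44.6% and 30.5% of all regions at those cuts. Of 299 regions on chromosomes with RefSeq starts here, 91 (30.4%) were within 1000 bp of a start, against 35.8% of all. Between chromosomes the spleen-biased share of regions ran from 0.721% on chromosome 2 to 1.9% on chromosome 1, which held 32 of them.

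The regions were spread over 302 nearest genes, and 7 genes had more than 1. Satb1, which encodes a chromatin organiser of T cells, had 3, at 43307, 246235 and 197985 bp. The nearest (chr17:51876386-51876808) held 16, 15 and 15 reads in spleen high libraries and 21 and 16 in spleen low replicates 1 and 2, but 19 and 21 in the complete lists of mesenteric high replicates 1 and 3. Mesenteric low replicates 1 and 3 had 11 and 16 reads there, and axillary high replicate 1 had 18. Its spleen counts overlapped with those of mesenteric high, mesenteric low and axillary high libraries. Tnfrsf1b, which encodes TNF receptor 2, had 2 regions, 5862 and 17065 bp from its end and inside the gene. The first held 25, 19 and 25 reads in spleen high, 22, 21 and 26 in spleen low and, in the complete lists, 23 and 19 in mesenteric high replicates 2 and 3, 18 in mesenteric low replicate 3 and 23 in axillary high replicate 1, all but the 18 within the spleen range. Ramp1, Btg1, Gm4832 and Dad1 were among the genes with 2 regions each. In all, 5 pairs of neighbouring spleen-biased regions lay within 50 kb of each other.

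By gene group, regions were counted against all regions assigned to a gene within 100000 bp, of which 285 of 23561 (1.21%) were spleen-biased. The groups hold few regions, and their counts are given without a test. The prostaglandin and cyclic AMP group had 5 of 69 regions (7.25%), among them 1 each at Ptgs2, Creb1 and Pde7a. This list was drawn up with the Ptgs2 result known, so its count is not independent evidence. The mesenteric-biased and axillary-biased sets had 0 and 2 of the same 69 regions.

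Ptgs2 encodes cyclooxygenase 2, the inducible enzyme of prostaglandin synthesis. Its region (chr1:150164908-150165220) lay 56830 bp outside Ptgs2 and 116 bp from the start of Ptgs2os2, and covers the promoter window shown above. It held 15, 15 and 13 reads in spleen high and 8, 14 and 8 in spleen low libraries, and 6 in axillary high replicate 3, with no peak in the complete list of any other node library. No mesenteric library had a peak there. Creb1 encodes a transcription factor activated by cyclic AMP. The region 50511 bp outside it (chr1:64482086-64482480) held 11 and 12 reads in spleen high replicates 2 and 3 and 11 and 12 in spleen low replicates 1 and 2. The complete mesenteric high lists had 12, 11 and 12 reads there, so that the counts overlapped.

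Pde7a encodes a phosphodiesterase that degrades cyclic AMP. The region 21377 bp outside it held 11 and 12 reads in spleen high and 11 and 12 in spleen low libraries, against 13, 11 and 11 in mesenteric high libraries. The counts at Pde7a overlapped. Of these 3 regions, Ptgs2 was the 1 with no mesenteric peak in the complete lists.

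Genes of TCR signal and activation had 2 of 123 regions (1.63%). The Cd69 region (chr6:129232899-129233159) stood out in reads. Cd69 encodes an early activation antigen that holds T cells in lymphoid tissue by removing the egress receptor S1PR1. Its region, 34295 bp outside the gene and 5016 bp from the nearest RefSeq start, held 25, 28 and 26 reads in spleen high and 27, 29 and 24 in spleen low libraries. Mesenteric low replicate 3 had 22 reads, and no other node library had a peak in its complete list. The mean of 26.5 reads was the highest of all 310 regions, and the deposited fold was 4.92 to 5.85 in spleen libraries, below the median kept peak of 8.18 to 9.05. By fold the region no longer met the rule. Nr4a3, of the same receptor family as the reporter gene, had a region 80165 bp outside it with 8 and 7 reads in spleen high and 9 and 10 in spleen low libraries, 10 each in mesenteric high replicates 1 and 3, 5 in mesenteric low replicate 2 and 7 to 8 in the 3 axillary libraries with a peak. The mesenteric high counts at Nr4a3 were at or above those of the spleen.

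Negative regulators of TCR signal had 3 of 142 regions (2.11%). A region 41756 bp outside Cblb, an E3 ubiquitin ligase that restrains activation, held 8, 10 and 9 reads in spleen high and 13 and 11 in spleen low libraries, against 7, 11 and 13 in mesenteric high. Csk encodes the kinase that keeps Lck inactive, and its region lay inside the gene at 8130 bp from the end, with 17, 14 and 10 reads in spleen high and 14 and 14 in spleen low libraries. Mesenteric high replicate 2 had 20 raw reads there, more than any spleen library. Its list rank was 2.43, against 2.12 to 37.2 in the 4 spleen lists with a peak. Mesenteric low replicates 1 and 2 had 13 and 12 reads and axillary high replicate 1 had 13. Dusp5, a phosphatase of nuclear ERK, had a region 64253 bp away, within 96 bp of a RefSeq start, with 11, 13 and 7 reads in spleen high and 16, 14 and 13 in spleen low libraries. Its mesenteric counts of 10, 13 and 10 in high libraries and 8 and 14 in low replicates 1 and 2 overlapped with these, and 3 axillary libraries had 11, 11 and 7. Naive state and quiescence genes had 4 of 130 regions (3.08%), at Btg1, Satb1, Klf3 and Bcl2, while axillary-biased regions also numbered 4 and mesenteric-biased 2. Each of these 4 regions had node peaks in the complete lists. At Btg1 these held 9 and 8 reads in mesenteric high replicates 2 and 3 and 7 in axillary low replicate 3, within the spleen counts of 6 to 13.

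Cell cycle genes had 2 of 51 regions (Cenpe and Cdk6), and T helper genes 1 of 47 (Stat4, which acts downstream of interleukin 12). Retinoic acid and TGF-beta genes had 1 of 81, at Smad7, an inhibitor of TGF-beta signalling. Atf3, a stress-induced bZIP factor, gave 1 of 83 regions to the group of IRF, NF-kB, NFAT and AP-1 factors and the same 1 to the 27 regions of the stress group. The Atf3 region (chr1:191183121-191183615), 35 bp from the gene, held 13, 15 and 12 reads in spleen high and 10, 12 and 11 in spleen low libraries. Mesenteric high replicate 2 had 15 reads there and mesenteric low replicate 1 had 9, and no axillary library had a peak. Migration (64 regions), interferon response (35) and iron, heme and oxygen sensing (50) had 0. The Cxcr4 region was 120742 bp away and so was not assigned.

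At gene ends the strongest members included Ctnnb1, Plekho2, Ubap2l, Zc3h18 and Cxcl10. Ctnnb1 encodes beta-catenin, and the region at its promoter (chr9:120933208-120933733) held 21, 19 and 16 reads in spleen high and 22, 16 and 15 in spleen low libraries. The complete mesenteric lists had 13, 15 and 15 reads in high and 16, 18 and 9 in low libraries, and no axillary library had a peak.

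The region at the Plekho2 promoter (chr9:65579938-65580453) held 24, 19 and 20 reads in spleen high and 14, 27 and 14 in spleen low libraries, with 14, 14 and 15 in mesenteric high, 12, 20 and 18 in mesenteric low, and 12 and 9 in axillary high replicates 1 and 2. Plekho2 thus overlapped with mesenteric nodes, and spleen high counts were above those of mesenteric high libraries. At Ubap2l, an RNA-binding protein gene, spleen high libraries had 18, 14 and 16 reads and spleen low libraries 13, 9 and 13, against 14, 12 and 11 in mesenteric high and 7, 11 and 18 in mesenteric low libraries. At Zc3h18, which acts in RNA processing, counts were 10, 19 and 13 in spleen high and 8, 18 and 6 in spleen low libraries, against 10, 10 and 10 in mesenteric high libraries, and overlapped. Cxcl10 (chr5:92348755-92349065) stood at 14 and 18 reads in spleen high and 7, 11 and 14 in spleen low libraries, against 19, 14 and 14 in mesenteric high libraries. The Cxcl10 counts overlapped between the organs.

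Promoter sequence was available for 102 RefSeq windows, from 250 bases before to 50 after a start, under 79 of the 310 regions. Their median GC content was 60.3%, against 62.3% in 10468 windows under any union region and 53.0% in all 32585 windows. The AP-1 motif was found in 10 windows (9.8%), against 4.0% under any region and 7.85% of all windows. In windows under mesenteric-biased and axillary-biased regions it was found in 6.17% and 10.9%. The NF-kB motif was in 13 windows (12.7%), against 7.75% and 5.85%. It was in 7.41% of windows under mesenteric-biased and 10.9% of those under axillary-biased regions. Windows of Cxcl10, Traf3, Lgals9, Rad51b and Flna were among the 13. The full cyclic AMP element was in 4 windows (3.92%), at Mrpl49, Fau, Skp1 and Nup133, against 3.69% and 1.8%.

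Of motifs common at housekeeping promoters, GGGCGG was in 55.9% of the windows, against 69.6% under any region and 35.9% of all, and CCGGAAG in 19.6%, against 20.9% and 8.92%. CCAAT was in 31.4%, against 38.3% and 37.6%. The core CGTCA, which is part of the full element, was in 27.5%, against 35.6% and 20.9%. The RUNX motif was in 10.8%, against 11.8% and 16.6%, and AAGATGGC in 6.86%, against 5.07% and 2.75%. Several windows of 1 gene overlap, so the counts are not of independent sequences.

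Spleen high and spleen low cells were compared at the 33 spleen-biased regions with a peak in all 6 spleen lists, out of 310, since a rank is needed in each library. The rule did not use this contrast beyond asking for 2 lists in each level. Over 8975 regions tested with limma on the rank percentile, 0 were called after Benjamini-Hochberg adjustment (0.0%, smallest adjusted p = 0.466), and 603 (6.72%) had an unadjusted p under 0.05. Among the 33 regions, 0 were called and 3 had an unadjusted p under 0.05. In list counts, 62 of the 310 regions had more spleen high than low lists, 46 had fewer and 202 had the same number.

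The widest difference was at the Cenpe region. Its ranks were 62.6, 60 and 54.0 in spleen high and 0.432, 14.5 and 18.2 in spleen low libraries, and these did not overlap. The mean was 58.9 ± 4.41 in high and 11.0 ± 9.37 in low libraries (SD over 3 libraries each). They differed by 47.8 points (SE 12.1, limma adjusted p = 0.662). At the second Tnfrsf1b region (chr4:145229070-145229797) ranks were lower in high libraries, at 3.53, 2.5 and 11.6 against 34.7, 38.9 and 27.7 in low libraries. That difference was -27.9 points (SE 13.2, limma adjusted p = 0.735).

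High and low ranks did not overlap at 6 of the 33 regions (18.2%), against 12.2% of all regions tested. They included the Kctd8 region, with 48.3, 60.5 and 37.5 in spleen high and 24.5, 35.3 and 34.1 in spleen low libraries. They also included a region 16428 bp from Supt20, with 5.29, 16.6 and 20.9 in spleen high and 41.5, 22.5 and 31.9 in spleen low libraries. Of the 33, 21 had a higher and 12 a lower mean rank in high libraries, with a median difference of 6.71 points, against -0.00238 over all regions. Without spleen high replicate 1 the split was 17 to 16 and the median difference 1.8 points. The median range of a region over the 6 libraries was 40.7 points at the 33 and 28 points over all regions. At Cd69 ranks were close, with 36.7, 45.6 and 36.9 in high and 30.8, 43.3 and 33.5 in low libraries, and overlapped.

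Mesenteric and axillary nodes were compared because the rule did not distinguish them. In the equal lists 116 of the 310 regions had more mesenteric than axillary lists, 86 had fewer and 108 had the same number. In the complete lists Fisher's exact test on presence in 6 mesenteric against 6 axillary libraries, added after seeing the data, could be run at 178 of the 310 regions and 3733 in all. It called 0 regions after adjustment (0.0%, smallest adjusted p = 0.135). At an unadjusted p under 0.05, 29 of the 178 were more frequent in mesenteric nodes, against 417 of all tested (11.2%). In axillary nodes 0 of the 178 and 2 of all tested were more frequent at that p. Mesenteric lists were longer and deeper in all 6 libraries, which cannot be told apart from the organ here.

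A rank in every library existed at 1 of the 310 regions, 408 bp from Wdr13 (chrX:8132132-8132769), among 8755 regions present in all complete lists. Its rank among those was 0.881 ± 0.429 in mesenteric and 0.867 ± 0.792 in axillary libraries (SD, n = 6 each). The difference was 0.0143 points (SE 3.62, limma adjusted p = 0.998), while 87 of 8755 regions (0.994%) were called, 32 higher and 55 lower in mesenteric nodes, and 19.2% had an unadjusted p under 0.05. On the log2 scale of the deposited fold, Wdr13 was 0.27 higher in mesenteric libraries (SE 0.0938, limma adjusted p = 0.027), a setting that called 3278 regions higher and 9 lower and in which the median of all regions was 0.21 higher in mesenteric libraries. For high against low cells over all organs, 10 regions (0.114%) were called and 8.97% had an unadjusted p under 0.05. Wdr13 was at 7.28 ± 9.01 in high and 9.91 ± 13.6 in low libraries of the spleen, at 1.12 ± 0.407 and 0.642 ± 0.349 in mesenteric and at 1.09 ± 1.01 and 0.647 ± 0.642 in axillary nodes (SD, n = 3 each). The difference of high and low was -0.572 points (SE 3.68, limma adjusted p = 0.974).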

How the data were processed

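ATAC-seq peak lists of 18 libraries were used, 1 list per library on mouse build mm10. Trimmomatic 0.33, Bowtie2, MACS and bedtools were used, per the submitters' processing notes. The sources used here do not give other versions, caller options or the handling of duplicates and of the Tn5 shift. The deposited values of a peak are its score, its fold enrichment (a ratio of summit reads to background), its −log10 p and its −log10 q, which are the authors' and were used only within a list. Of 314829 deposited peaks, 404 on other sequences were set aside.

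Peaks were ranked by deposited −log10 p, and the 14000 strongest per library were merged into union regions. Reads at summits were recovered as the whole numbers that give both the deposited fold and p (tolerance 0.002 on −log10 p, single match in 99.3% of peaks). Smallest local background gave the depth, which is relative. Genes and promoters came from RefSeq tables of GRCm38.p6 with 21631 protein-coding genes, and a region is named by the nearest gene. No genome sequence was used, so regions away from starts have no sequence here, and chromosome 18 had no promoter sequence.

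Rank percentiles were tested with limma 3.58.1 (R 4.3.3), two-sided, with Benjamini-Hochberg adjustment at 0.05 over all regions of a test, after tests on simulated data. Named were the 12 regions with the fewest node lists, 6 strong ones at gene ends, up to 5 per gene list, genes with several regions and regions at the limit of the rule. Members, gene lists and tests were chosen with earlier results of these data known. Some regions that this rule names are not reported here. Alternatives were other list lengths, ranking by fold, merging within 100 bp, other limits, a replicate block and leaving out each library.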

Additional observations from a re-analysis of the deposited data

How the results depend on the processing

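Spleen-biased regions numbered 118 with a limit of 2 node lists and 141 with at least 5 spleen lists, both fewer by construction. Leaving out 1 library gave 149 to 402, with 149 to 171 without a spleen library and 374 to 402 without a node library, since the limits were kept. Merging peaks within 100 bp kept 309 of the 310. The share within 1000 bp of a gene end was 42.6% with 10000 peaks, 35.5% with 12000 and 20.0% with all peaks (all regions 44.6%, 39.7% and 30.5%), was 35.2% within 2500 bp (all regions 41.7%), and was 25.3% to 32.7% with 1 library left out. The causes were not tested. Spleen high against low gave 0 calls under every alternative run, leaving out each spleen library included (0 to 0), with the smallest adjusted p between 0.0762 (log2 fold, limma) and 0.797. Mesenteric against axillary gave 87 calls, 3287 on the log2 fold scale, 31 with a replicate block and 26 to 106 with 1 library left out. High against low over all organs gave 10 calls, 27 on the log2 fold scale, 4 with a replicate block, 0 within spleen, 0 within mesenteric and 0 within axillary libraries, and 4 to 12 with 1 library left out. Deviations of same-numbered replicates were uncorrelated (r of -0.0199 to 0.0154, 0 pairs over 0.1). The block is therefore by number only. Libraries within a group differed little, and the sources do not say whether same-numbered replicates share animals, so a pairing is not excluded. Fisher's exact test of mesenteric against axillary presence gave 0 to 0 calls with 1 library left out. For Wdr13 the adjusted p between nodes was 0.027 on the log2 fold scale only. The mean summit reads of the regions, 7 to 26.5, limit the precision of their ranks.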
